A study of Homo sapiens with 24 samples.

Results

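The genes described here answered POM121 siRNA in the same direction in both prostate cancer sublines that were studied, DU145DR and 22Rv1DR. A gene was taken if its 4 construct-minus-control differences (2 siRNA constructs in 2 lines) shared one sign, if siPOM121 against control passed an adjusted p of 0.05 in a fit with line as a block, and if the effect passed that threshold within each line as well. Of 13622 gene symbols tested, 1023 met this rule (7.51%), 459 of them higher and 564 lower after siPOM121. They are called common genes in the following. Another 2492 symbols with 4 differences of one sign passed in only 1 line and were left out.

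POM121 is a nucleoporin, a protein of the nuclear pore complex, and one of the few that span the nuclear membrane. The pore carries importins with their protein cargo into the nucleus and carries RNA and ribosomal subunits out. POM121 has been studied in aggressive prostate cancer for its part in the import of transcription factors, with MYC, E2F1 and GATA2 among them. Ribosome biogenesis, the largest group among the lower genes, takes place in the nucleolus: RNA polymerase I transcribes the ribosomal RNA precursor, which is then cut, modified and packed with ribosomal proteins by a large set of assembly factors, many of them known targets of MYC.

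RNA-seq was done on 12 poly(A) libraries, each read on 2 lanes. DU145DR comes from DU145 and 22Rv1DR from 22Rv1, both established human prostate cancer lines, and the labels describe the sublines as aggressive; they are known as models of docetaxel resistance. In each line 2 libraries were controls, 2 received siPOM121 construct 1 and 2 received siPOM121 construct 2. In DU145DR these are libraries 1A and 2A, 1B and 2B, and 1C and 2C, and in 22Rv1DR 4A and 5A, 4B and 5B, and 4C and 5C. The labels give neither the nature of the control nor the number of cultures behind the libraries of a group, so the effect of less POM121 and that of siRNA delivery cannot be told apart where the control was not an siRNA, and p-values reflect the spread between libraries, which may be technical. Each line is 1 subline, without a sensitive parent in the comparison.

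Levels are in FPKM (fragments per length of transcript and library size), and values at or under 1 FPKM stand at a floor. The read depth is unknown, and samples had 11884 to 12126 symbols above the floor in DU145DR and 12361 to 12569 in 22Rv1DR. KLK2, a kallikrein of prostate epithelium, was at the floor in all DU145DR libraries and above it in all 22Rv1DR libraries, and VIM and CD44 showed the reverse, the pattern known for the parent lines. Of 24 marker genes of stromal, endothelial and blood cells, 3 were above the floor in DU145DR and 4 in 22Rv1DR, with summed levels of 16.0 to 17.8 and 56.1 to 69.3 FPKM. Library 4C stood apart: its median gene lay 0.066 (log2) under the 22Rv1DR controls. Ribosomal protein genes took 18.6% of its FPKM against 12.2% in 5C, the other library of its group. Their share was 15.3% and 15.1% in the 22Rv1DR controls and 17.1% and 16.6% with construct 1, so 5C departed from the controls too. Lanes 1 and 2 carried every DU145DR library and, of 22Rv1DR, the control 4A, while lanes 3 and 4 carried the rest, so that leaving out 4A keeps the 22Rv1DR comparison within 1 pair of lanes.

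The targeted gene was lower in every siPOM121 library. POM121 was at 21.6 and 21.3 FPKM in the DU145DR controls and 13.4, 13.5, 12.5 and 13.2 FPKM in the siPOM121 libraries, and at 38.5 and 37.8 against 7.68, 7.81, 6.73 and 7.43 FPKM in 22Rv1DR. The siPOM121 effect on POM121 was -0.71 ± 0.048 in DU145DR and -2.37 ± 0.048 in 22Rv1DR (log2 fold change ± SE), and the line difference passed the test (adjusted p = 2.84e-06, limma). POM121C, a nearly identical paralog of POM121, was at 16.7 and 17.1 FPKM in the DU145DR controls and 10.6, 10.4, 9.77 and 10.5 FPKM in the siPOM121 libraries, and at 26.3 and 27.0 against 4.61, 4.65, 4.04 and 4.64 FPKM in 22Rv1DR. The effect on POM121C was -0.71 ± 0.059 in DU145DR and -2.58 ± 0.059 in 22Rv1DR. Reads of these copies can be assigned to either, so the values of POM121 and POM121C are uncertain as separate measurements. The remaining transcript was lower in 22Rv1DR, where both constructs left 6.73 to 7.81 FPKM of POM121, than in DU145DR, where 12.5 to 13.5 FPKM were left.

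Over both lines together, with line as a block, 1313 symbols were higher and 1476 lower after siPOM121 (9.64% and 10.8% of all tested). All 4 differences shared one sign in 2619 symbols in the higher direction (19.2%) and 2699 in the lower direction (19.8%). The common genes were 459 higher (3.37%) and 564 lower (4.14%). Their effects were small. The median log2 fold change of the higher genes was 0.32 in DU145DR and 0.30 in 22Rv1DR, and that of the lower genes was -0.26 and -0.32; these medians describe genes selected by the same contrast. The smaller of the line effects reached 0.5 in 28 higher and 16 lower genes, and stayed under 0.2 in 115 and 180. As the libraries are bulk RNA, fewer cells in a given state and less RNA per cell cannot be told apart for any of these genes.

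The 6 libraries of each line did not overlap between control and siPOM121 in 433 of the 459 higher genes and 549 of the 564 lower genes, beside 7.02% and 10.2% of all tested genes. The rule used the same contrast in the same libraries and so nearly fixes these counts, which are a description only. The same holds wherever the siPOM121 libraries of a single common gene are said below to lie apart from the controls. The median level over the 12 libraries was 20.8 FPKM for the common genes that fell, against 10.8 FPKM for the common genes that rose and 9.83 FPKM for all tested genes. Nearest to the threshold, UBE2L6 (largest of its adjusted p-values 0.0499) and SLC25A38 (0.0498) lay inside, and PLEKHM3 and SLC9B2 (both 0.0501) lay outside.

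The number of common genes depended on single libraries, since each group has 2. Without 4C there were 871 higher and 1025 lower genes, which include 453 and 558 of those above, and without 5C 624 and 1038. Leaving out a control gave fewer: 240 higher and 187 lower when 1A was dropped, 251 and 260 for 2A, 289 and 314 for 4A, and 242 and 316 for 5A. Construct 1 with the controls gave 747 and 974, and construct 2 with the controls gave 168 and 128. These fits belong to a set of 29 alternatives that each change the libraries, the lanes or a step of the processing.

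**Figure D1:**
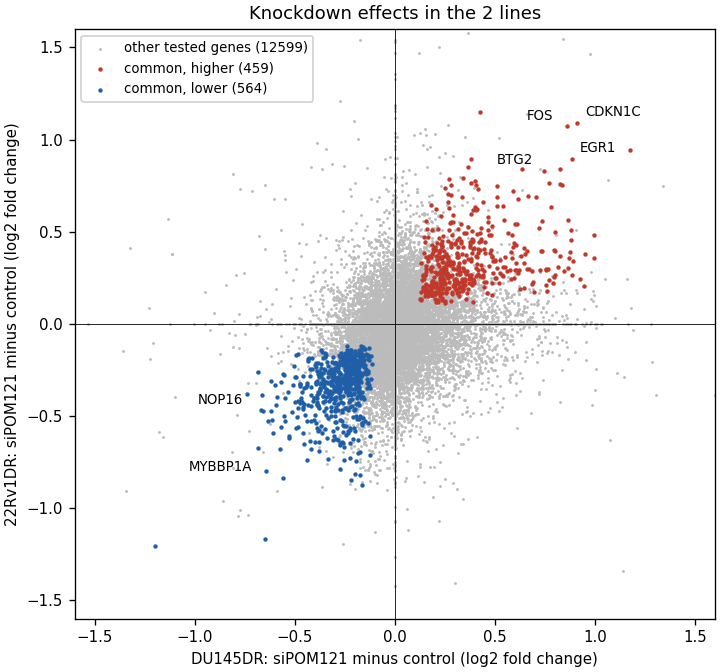
Log2 fold change of siPOM121 against control in DU145DR (horizontal axis) and 22Rv1DR (vertical axis), 1 point per tested gene. Red points are the 459 common higher genes and blue points the 564 common lower genes; 59 genes with an effect beyond 1.6 in a line lie outside the axes, POM121C among them.

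The lower genes were led by the factors that build ribosomes. Of 60 ribosome biogenesis factors tested, 42 were common and lower and none common and higher, where 4.14% of all tested genes were common and lower. In the fit over both lines 52 of the 60 were lower, beside 10.8% of all tested genes, and 2 members were higher in 22Rv1DR by its own test. The median effect of the 60 was -0.34 in each line, beside 0 in DU145DR and -0.016 in 22Rv1DR for all tested genes. The members that fell belong to every stage considered here: transcription of ribosomal DNA, modification and cleavage of the precursor RNA, and assembly of both subunits.

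RNA polymerase I transcribes ribosomal DNA. POLR1A, its catalytic subunit, was at 15.1 and 14.6 FPKM in the DU145DR controls and 11.1, 11.5, 10.4 and 11.1 FPKM in the siPOM121 libraries, and at 11.5 and 11.5 against 8.89, 9.04, 7.32 and 8.81 FPKM in 22Rv1DR. No siPOM121 library of a line reached the level of that line's controls. The effect was -0.43 ± 0.069 in DU145DR and -0.44 ± 0.069 in 22Rv1DR (adjusted p = 0.000555 with line as a block). Its partner subunit POLR1B changed by -0.37 ± 0.10 in DU145DR and -0.32 ± 0.10 in 22Rv1DR and lost the call in 11 of the 29 alternative fits. Families were also picked out by symbol after the values were seen. Of the 5 RNA polymerase I subunits so picked 4 were common and lower, as were 3 of 10 RNA polymerase III subunits. With 1 library left out the counts were 1 to 4 and 0 to 3, lowest without 1A. TWISTNB, also a subunit of RNA polymerase I, is outside this family of 5 and was not common. TCOF1, a nucleolar factor that works with RNA polymerase I, fell by 0.34 and 0.73 on the log2 scale in DU145DR and 22Rv1DR.

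Modification of ribosomal RNA is guided by small nucleolar RNAs in particles built on fixed proteins. DKC1 (dyskerin, the pseudouridine synthase of the H/ACA particles) was at 81.7 and 76.7 FPKM in the DU145DR controls and 52.1, 54.3, 57.8 and 58.0 FPKM in the siPOM121 libraries, and at 39.8 and 39.6 against 26.4, 26.8, 29.6 and 31.5 FPKM in 22Rv1DR. Every siPOM121 library was under its line's controls, with both construct 1 libraries lowest in each line. The effect on DKC1 was -0.51 ± 0.042 in DU145DR and -0.48 ± 0.042 in 22Rv1DR (adjusted p = 0.000224). NOP56, a core protein of the C/D particles, was at 117 and 113 FPKM in the DU145DR controls and 86.0, 87.9, 87.6 and 85.9 FPKM in the siPOM121 libraries, and at 89.3 and 89.5 against 63.9, 64.7, 55.3 and 65.3 FPKM in 22Rv1DR. The effect on NOP56 was -0.40 ± 0.058 in DU145DR and -0.52 ± 0.058 in 22Rv1DR (adjusted p = 0.000203). GAR1, which binds dyskerin, and NOP58, the partner of NOP56, were also common and lower, with effects of -0.40 and -0.49 and of -0.32 and -0.37 in DU145DR and 22Rv1DR. Fibrillarin (FBL), the methyltransferase of the C/D particles, was not common: its effects were -0.042 and -0.18.

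Among factors of precursor cleavage and small-subunit assembly, UTP20, part of the small-subunit processome, was at 15.0 and 15.9 FPKM in the DU145DR controls and 9.60, 10.6, 9.12 and 9.76 FPKM in the siPOM121 libraries, and at 6.61 and 6.55 against 4.75, 4.89, 4.50 and 4.82 FPKM in 22Rv1DR. The effect on UTP20 was -0.66 ± 0.058 in DU145DR and -0.47 ± 0.058 in 22Rv1DR (adjusted p = 0.000132). TSR1, an assembly factor of the late small subunit, was at 64.9 and 65.1 FPKM in the DU145DR controls and 50.6, 51.3, 52.2 and 51.9 FPKM in the siPOM121 libraries, and at 32.6 and 34.0 against 26.8, 26.9, 26.2 and 29.2 FPKM in 22Rv1DR. Its effect was -0.34 ± 0.046 in DU145DR and -0.29 ± 0.046 in 22Rv1DR. For NOLC1, a nucleolar phosphoprotein that accompanies small nucleolar particles, the effect was -0.29 ± 0.042 in DU145DR and -0.37 ± 0.042 in 22Rv1DR, from control levels that were higher in DU145DR (160.5 and 159 FPKM) than in 22Rv1DR (36.3 and 36.9 FPKM).

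Factors of the large subunit moved alike. NOP16 was at 53.4 and 52.0 FPKM in the DU145DR controls and 31.0, 32.1, 34.8 and 35.1 FPKM in the siPOM121 libraries, and at 54.2 and 56.8 against 42.1, 40.5, 33.8 and 44.8 FPKM in 22Rv1DR. All 8 siPOM121 libraries were below the controls, and the effect was -0.67 ± 0.090 in DU145DR and -0.47 ± 0.090 in 22Rv1DR (adjusted p = 0.000481). NOP2, a ribosomal RNA methyltransferase, was at 22.4 and 20.5 FPKM in the DU145DR controls and 15.1, 15.2, 16.5 and 15.9 FPKM in the siPOM121 libraries, and at 57.4 and 59.7 against 47.3, 48.3, 32.9 and 46.4 FPKM in 22Rv1DR. Library 4C was the lowest of its line, and the effect on NOP2 was -0.45 ± 0.11 in DU145DR and -0.44 ± 0.11 in 22Rv1DR (adjusted p = 0.00507). PES1 and BOP1, which work in one complex on the large subunit, had effects of -0.37 and -0.55 and of -0.36 and -0.39. MYBBP1A, a nucleolar protein that binds MYB and RNA polymerase I, is one of the 12 lower genes with the largest change shared by both lines and is given with them.

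The other 18 tested members were not common. They include NPM1 (nucleophosmin), with effects of -0.21 and -0.10, NHP2 with -0.11 and -0.19, IMP3 with -0.037 and -0.16, and DDX52 with -0.12 and -0.11 in DU145DR and 22Rv1DR. RRN3 (-0.27 and 0.031), TWISTNB (-0.13 and 0.14) and NOP10 (-0.058 and 0.15) had effects of opposite sign in the lines. Leaving out 1 library at a time gave 24 (without 1A) to 51 (without 5C) common lower members, with 27 without 2A, and construct 2 with the controls gave 18. The line difference passed the test for 6 of the 60 members, beside 24.8% of all tested genes.

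Ribosomal proteins, the parts that these factors assemble, gave no common gene. Of 78 cytosolic ribosomal protein genes tested none was common in either direction. Over both lines 8 of the 78 were higher and none lower, beside 9.64% and 10.8% of all tested genes. The share that was higher is near that of all tested genes. Their median effect was 0.047 in DU145DR and 0.062 in 22Rv1DR. As given above, their summed share differed between the construct 2 libraries 4C and 5C. Of 77 mitochondrial ribosomal proteins, a family chosen after the values were seen, 4 were common and lower, a share of 5.19% that is near the 4.14% of all tested genes; with 1 library left out the count was 1 (without 5A) to 15 (without 5C).

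**Figure D2:**
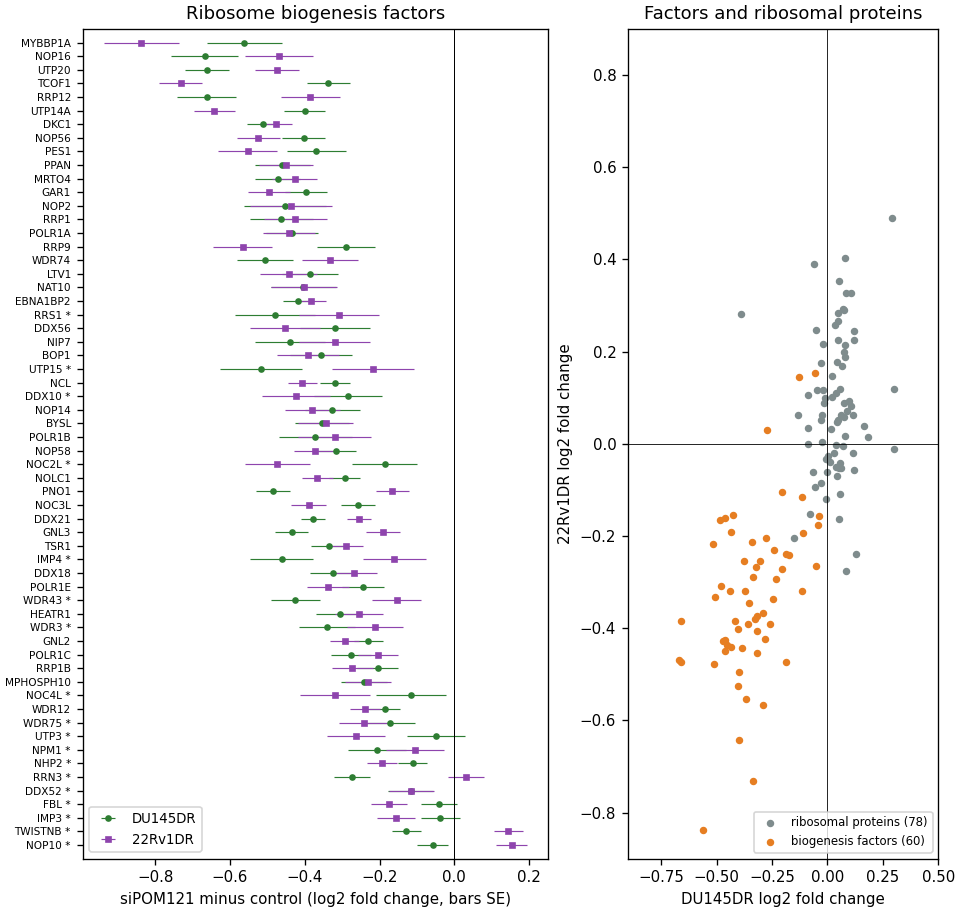
Left, log2 fold change of siPOM121 against control with its SE for the 60 ribosome biogenesis factors in DU145DR (circles) and 22Rv1DR (squares), ordered by the effect over both lines; an asterisk marks the 18 that were not common. Right, the same factors (orange) and 78 cytosolic ribosomal protein genes (grey) by their effects in both lines: the factors lie to the lower left and the ribosomal proteins around 0.

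Since ribosome biogenesis genes are classic bearers of the E-box, the sequence that MYC with MAX binds, promoter windows from RefSeq (GRCh38.p14, 250 bases before to 50 after the gene's start) were searched for the palindrome CACGTG after the counts above were known. Windows were matched by symbol for 33 of the 42 lower members. The motif was in 15 of these 33 windows (45.5%), in 10 of the 15 after the start. Stretches of 30 bases that hold it are shown for 8 members, written in the direction of transcription with capitals marking the E-box. These are the 8 members with the lowest effects over both lines among those with the E-box within 50 bases of the start. This choice fixes its nearness to the start. UTP14A (effect -0.52 over both lines) was left out by it, with the E-box 241 bases before the start, and EBNA1BP2 carries the E-box 237 bases before. The stretches are MYBBP1A at chr17:4555340-4555369 (minus strand), UTP20 at chr12:101280083-101280112 (plus strand), PES1 at chr22:30591880-30591909 (minus strand), MRTO4 at chr1:19251807-19251836 (plus strand), NOP2 at chr12:6568242-6568271 (minus strand), RRP9 at chr3:51941892-51941921 (minus strand), LTV1 at chr6:143843354-143843383 (plus strand) and NAT10 at chr11:34105602-34105631 (plus strand).

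MYBBP1A: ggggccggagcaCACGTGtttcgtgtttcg
UTP20: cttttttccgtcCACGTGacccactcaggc
PES1: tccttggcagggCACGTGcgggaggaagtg
MRTO4: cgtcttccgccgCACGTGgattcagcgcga
NOP2: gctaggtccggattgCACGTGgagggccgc
RRP9: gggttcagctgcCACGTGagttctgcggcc
LTV1: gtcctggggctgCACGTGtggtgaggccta
NAT10: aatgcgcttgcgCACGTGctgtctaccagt

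In this set PES1, MRTO4, NOP2, LTV1 and MYBBP1A carry the motif after the start and UTP20, RRP9 and NAT10 before it. Over all common lower genes the motif was in 20.0% of 465 matched windows, against 10.3% of 10638 windows of all tested genes, 7.57% of 370 windows of the common higher genes and 7.26% of all 35116 windows of the table. Within 50 bases of the start the shares were 14.0%, 4.22%, 2.43% and 2.82%, and 39.4% for the ribosome biogenesis members. Without the ribosome biogenesis members, 18.1% of the common lower windows held it. The sequence CCGGAAG, which ETS factors bind (searched on both strands, with no overlap with CACGTG), was in 31.6% of common lower windows, 8.11% of common higher windows, 19.3% of windows of tested genes and 10.3% of all windows. Another 5 motifs were searched: GTAAACA, which forkhead factors bind, TATAAA, and, by name alone, an E2F site, the cAMP response element and a palindrome around CGCG. Their shares in common lower windows were 1.51%, 4.95%, 3.44%, 3.66% and 1.51%, against 2.19%, 5.41%, 2.12%, 3.34% and 0.940% in windows of all tested genes. Each of these 5 was in at most 2 of the 33 windows of ribosome biogenesis members, whereas CCGGAAG was in 12 of them (36.4%). Ribosome biogenesis members that were not common were not counted as a set of their own. The motifs were compared as counts of letters. Base composition was not compared, and the shares are not adjusted for it or for the level of the genes. Fewer than 80% of tested genes and of the ribosome biogenesis members had a window.

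**Figure D3:**
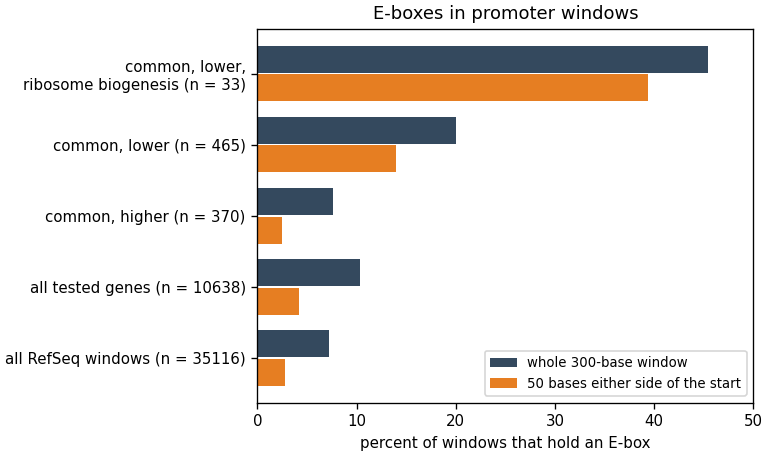
Percent of RefSeq promoter windows that hold CACGTG, over the whole 300-base window (dark) and within 50 bases either side of the start (orange), for 5 sets of genes, with the number of matched windows of each set. The ribosome biogenesis members stand at 45.5% and 39.4%, and all tested genes at 10.3% and 4.22%.

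Of the 12 lower genes with the largest change shared by both lines (by the smaller line effect, at 5 FPKM or more), some have roles close to ribosome biogenesis. MYBBP1A was at 47.7 and 43.8 FPKM in the DU145DR controls and 31.5, 30.7, 30.9 and 30.9 FPKM in the siPOM121 libraries, and at 37.0 and 36.3 against 21.9, 22.4, 16.3 and 22.3 FPKM in 22Rv1DR. The effect was -0.56 ± 0.10 in DU145DR and -0.84 ± 0.10 in 22Rv1DR (adjusted p = 0.000449). NOL6, a nucleolar factor of small-subunit assembly, was at 50.9 and 49.5 FPKM in the DU145DR controls and 31.3, 31.1, 33.4 and 33.7 FPKM in the siPOM121 libraries, and at 14.6 and 15.0 against 10.4, 10.7, 8.96 and 11.1 FPKM in 22Rv1DR. Its effect was -0.63 ± 0.071 in DU145DR and -0.53 ± 0.071 in 22Rv1DR (adjusted p = 0.000132). CCDC86 and DHX37, the latter an RNA helicase of the small-subunit processome, had effects of -0.57 and -0.68 and of -0.53 and -0.62 in DU145DR and 22Rv1DR, and both lost the call without 1A or without 2A. GPATCH4, a nucleolar protein, changed by -0.55 ± 0.092 in DU145DR and -0.53 ± 0.092 in 22Rv1DR. In these 5 genes, as in every gene of the 12, 4C was the lowest 22Rv1DR library.

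The other lower genes of the 12 have mixed roles. TRMT61A, the catalytic subunit of a transfer RNA methyltransferase, was at 11.9 and 11.3 FPKM in the DU145DR controls and 7.43, 7.21, 7.26 and 6.98 FPKM in the siPOM121 libraries, and at 7.83 and 8.38 against 5.56, 5.28, 4.08 and 5.56 FPKM in 22Rv1DR. It had the largest shared fall of the 12, with an effect of -0.69 ± 0.10 in DU145DR and -0.67 ± 0.10 in 22Rv1DR (adjusted p = 0.000272). TOE1, an exonuclease that trims the ends of small RNAs, was at 10.5 and 10.0 FPKM in the DU145DR controls and 6.38, 6.75, 6.03 and 7.14 FPKM in the siPOM121 libraries, and at 7.62 and 7.86 against 4.56, 4.59, 3.73 and 5.01 FPKM in 22Rv1DR. Its effect was -0.64 ± 0.11 in DU145DR and -0.80 ± 0.11 in 22Rv1DR (adjusted p = 0.000223). MAT2A, the enzyme that makes S-adenosylmethionine, the methyl donor, was at 110.5 and 111 FPKM in the DU145DR controls and 72.6, 76.1, 73.9 and 75.4 FPKM in the siPOM121 libraries, and at 62.6 and 62.1 against 46.3, 47.0, 36.3 and 40.3 FPKM in 22Rv1DR. The effect on MAT2A was -0.57 ± 0.046 in DU145DR and -0.56 ± 0.046 in 22Rv1DR (adjusted p = 0.000236). DPH2, which takes part in making diphthamide on elongation factor 2, changed by -0.61 ± 0.069 in DU145DR and -0.52 ± 0.069 in 22Rv1DR, ARMC6 by -0.55 ± 0.088 in DU145DR and -0.50 ± 0.088 in 22Rv1DR, and the mitochondrial ATPase ATAD3B by -0.61 ± 0.073 in DU145DR and -0.59 ± 0.073 in 22Rv1DR; ATAD3B has near-identical neighbours, so its value is uncertain.

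**Figure D4:**
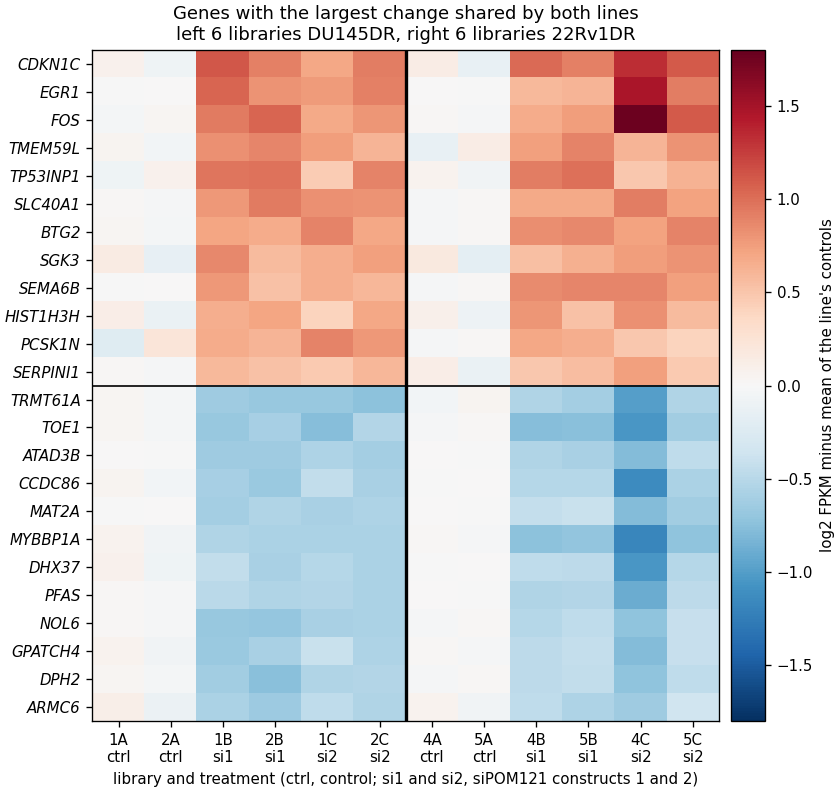
Log2 FPKM of each library minus the mean of its line's controls, for the 12 higher and 12 lower common genes with the largest change shared by both lines (rows) in the 12 libraries (columns, with codes and treatment). The 8 siPOM121 columns are red for every higher gene and blue for every lower gene, which the choice of genes by this contrast nearly fixes. Library 4C is the darkest column for FOS, EGR1, MYBBP1A and DHX37.

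Further enzymes that act on RNA had members that fell in both lines. These families were picked out by symbol after the values were seen, so their counts describe the table and nothing more. Of all tested genes 4.14% were common and lower. Of 39 enzymes that modify transfer or ribosomal RNA 13 were common and lower and none common and higher. PUS1, a pseudouridine synthase, was at 21.4 and 20.5 FPKM in the DU145DR controls and 14.9, 14.4, 16.1 and 15.6 FPKM in the siPOM121 libraries, and at 29.7 and 31.7 against 22.4, 22.7, 16.4 and 20.6 FPKM in 22Rv1DR. NSUN2, a methyltransferase of transfer RNA, changed by -0.41 ± 0.075 in DU145DR and -0.40 ± 0.075 in 22Rv1DR. Of the 10 subunits of the RNA exosome, which trims and degrades RNA, 5 were common and lower, with EXOSC10 at -0.26 and -0.55 and EXOSC2 at -0.27 and -0.32 in DU145DR and 22Rv1DR. Of 54 DEAD and DEAH box helicases 15 were common and lower, with DDX21 at -0.38 and -0.26. Among 37 splicing factors of the SR and hnRNP families 10 were common and lower. SRSF1, an SR protein of constitutive and alternative splicing, was at 74.4 and 74.8 FPKM in the DU145DR controls and 58.4, 57.5, 58.7 and 57.5 FPKM in the siPOM121 libraries, and at 37.8 and 35.5 against 23.9, 24.9, 22.7 and 25.7 FPKM in 22Rv1DR, an effect of -0.36 ± 0.052 in DU145DR and -0.59 ± 0.052 in 22Rv1DR. With 1 library left out there were 7 to 16 modifying enzymes, 1 to 6 exosome subunits, 4 to 24 helicases and 4 to 14 splicing factors, each count being lowest without 1A. Construct 2 with the controls gave 5 modifying enzymes, no exosome subunit, 3 helicases and 2 splicing factors.

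Of 26 genes of purine and pyrimidine synthesis 9 were common and lower and none common and higher, beside 4.14% and 3.37% of all tested genes. Over both lines 13 were lower, beside 10.8%. The median effect of the 26 was -0.11 in DU145DR and -0.35 in 22Rv1DR, where 1 member was higher by its own test. PFAS, an enzyme of purine synthesis, was at 23.8 and 22.9 FPKM in the DU145DR controls and 16.6, 16.0, 16.2 and 15.8 FPKM in the siPOM121 libraries, and at 14.8 and 14.8 against 10.2, 10.3, 7.95 and 10.7 FPKM in 22Rv1DR. Its effect was -0.53 ± 0.095 in DU145DR and -0.61 ± 0.095 in 22Rv1DR (adjusted p = 0.000432). CTPS1, which makes CTP, was at 54.9 and 54.1 FPKM in the DU145DR controls and 34.5, 35.4, 38.4 and 36.7 FPKM in the siPOM121 libraries, and at 29.0 and 28.7 against 21.3, 21.4, 22.2 and 22.6 FPKM in 22Rv1DR. CTPS1 fell further in DU145DR, by 0.59 against 0.40 on the log2 scale, and the line difference passed the test (adjusted p = 0.0235). ATIC, the last enzyme of purine synthesis, changed by -0.30 and -0.35 and UMPS, the last of UMP synthesis, by -0.28 and -0.34 in DU145DR and 22Rv1DR. CAD, which opens pyrimidine synthesis, changed by -0.24 ± 0.070 in DU145DR and -0.60 ± 0.070 in 22Rv1DR, but it lost the call in 13 of the 29 alternative fits, without any of 10 of the 12 libraries among them. The list count ranged from 3 (without 2A) to 14 (without 4C), was 4 without 1A, and was 3 for construct 2 with the controls.

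Of 10 genes of polyamine synthesis and turnover only the rate-limiting enzyme ODC1 was common and lower, beside 4.14% of all tested genes. ODC1 was at 199.9 and 198 FPKM in the DU145DR controls and 117, 118, 131 and 130.0 FPKM in the siPOM121 libraries, and at 214 and 216 against 180.0, 187, 162 and 190.1 FPKM in 22Rv1DR. Its fall was larger in DU145DR, with an effect of -0.68 ± 0.056 in DU145DR and -0.26 ± 0.056 in 22Rv1DR (line difference adjusted p = 0.00585). Without 5A ODC1 lost the call, which leaves no common gene in the list.

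Genes that charge transfer RNA and fold new proteins also had members that fell. For comparison, 4.14% of all tested genes were common and lower, and 10.8% were lower over both lines. Of 37 aminoacyl-tRNA synthetases 6 were common and lower, with FARSB at -0.28 and -0.23 and YARS at -0.21 and -0.25 in DU145DR and 22Rv1DR, and over both lines 18 were lower and none higher. Of the 9 genes of the cytosolic chaperonin CCT, which folds actin and tubulin, 6 were common and lower. CCT2 was at 164 and 164 FPKM in the DU145DR controls and 134, 130.2, 139.6 and 139 FPKM in the siPOM121 libraries, and at 229 and 234 against 202, 207, 199 and 212 FPKM in 22Rv1DR, an effect of -0.27 ± 0.038 in DU145DR and -0.18 ± 0.038 in 22Rv1DR. CCT3 and CCT7 moved by -0.16 and -0.17 and by -0.12 and -0.17, and they lost the call in 11 and 17 of the 29 alternative fits. The synthetase count was 2 without 1A, 3 without 1C or 5A, 14 without 4C and 18 without 5C, and the CCT count was 1 without 1A or 2A, 2 without 2B, 2C, 4A or 5A, and 3 without 1B. Construct 2 with the controls gave 1 synthetase and no CCT gene.

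Transcripts that host small nucleolar RNAs in their introns were common and lower for 4 of 16 hosts tested, beside 4.14% of all tested genes. SNHG17 was at 23.1 and 20.8 FPKM in the DU145DR controls and 12.7, 13.8, 12.4 and 13.7 FPKM in the siPOM121 libraries, and at 13.6 and 14.1 against 11.2, 11.03, 10.2 and 10.1 FPKM in 22Rv1DR. Its effect was -0.74 ± 0.062 in DU145DR and -0.38 ± 0.062 in 22Rv1DR (line difference adjusted p = 0.0181). SNHG15 and SNHG1 were also lower by more in DU145DR, with effects of -0.56 and -0.27 and of -0.50 and -0.17, whereas SNHG11 changed by -0.36 and -0.32. SNHG11 lost the call in 12 of the 29 alternative fits and SNHG1 in 18, and the SNHG1 4C library (52.8 FPKM) was above both controls (49.6 and 49.8 FPKM). The count was 2 without 1A, 2A, 2B, 1C, 4A or 5A and 6 without 4C. In the mitochondrial import machinery, a family chosen after the values were seen, 7 of 23 TIMM and TOMM genes were common and lower (2 without 1A, 4 without 2A or 5A and none for construct 2 with the controls), with TIMM44 at -0.28 and -0.30.

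Some genes of the pore and the import machinery, to which POM121 belongs, were among the common lower genes. Of 30 other nucleoporins tested 8 were common and lower and none common and higher, beside 4.14% and 3.37% of all tested genes. Over both lines 18 were lower, beside 10.8%. NUP188, a large scaffold of the inner ring, was at 74.9 and 72.1 FPKM in the DU145DR controls and 54.4, 56.9, 57.4 and 57.3 FPKM in the siPOM121 libraries, and at 40.4 and 40.8 against 29.4, 30.1, 27.6 and 31.3 FPKM in 22Rv1DR. Its effect was -0.38 ± 0.051 in DU145DR and -0.46 ± 0.051 in 22Rv1DR (adjusted p = 0.000132), and it kept the call in all 29 alternative fits. NUP35 and NUP205, also of the inner ring, changed by -0.30 and -0.21 and by -0.14 and -0.26 in DU145DR and 22Rv1DR. SEH1L and AHCTF1 (ELYS), of the outer ring, changed by -0.18 and -0.24 and by -0.21 and -0.19. SEH1L lost the call in 13 of the 29 alternative fits, NUP205 in 8 and AHCTF1 in 6. The count was 13 without 4C, 14 without 5C, 2 (without 2A) to 6 without any one of the other libraries, and 1 for construct 2 with the controls.

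Of 31 importins, exportins and genes of the Ran cycle 7 were common and lower, beside 4.14% of all tested genes, and none was common and higher. Over both lines 13 were lower and 1 higher, beside 10.8% and 9.64% of all tested genes. In 22Rv1DR 15 were lower and 3 higher by its own test, beside 20.4% and 15.2%. IPO4, an importin for histones and ribosomal proteins, was at 26.3 and 25.2 FPKM in the DU145DR controls and 19.6, 18.8, 19.9 and 20.2 FPKM in the siPOM121 libraries, and at 33.0 and 34.4 against 24.5, 24.3, 19.7 and 24.5 FPKM in 22Rv1DR. Its effect was -0.39 ± 0.074 in DU145DR and -0.54 ± 0.074 in 22Rv1DR. KPNB1 (importin beta), the main carrier of classical import, changed by -0.17 ± 0.042 in DU145DR and -0.40 ± 0.042 in 22Rv1DR, with a line difference at adjusted p = 0.0211. KPNB1 was at 127 and 127 FPKM in the DU145DR controls and 111, 113, 113 and 113 FPKM in the siPOM121 libraries, and at 116 and 114 against 88.4, 91.4, 80.6 and 88.4 FPKM in 22Rv1DR. RANGAP1, which acts on Ran outside the nucleus, changed by -0.23 and -0.34, the microRNA exporter XPO5 by -0.30 and -0.40, and TNPO3, which imports SR proteins, by -0.21 and -0.32. When 1A was left out the count was 1, for 2A it was 3, leaving out 5C gave 11, and construct 2 with the controls gave 0.

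Of the factors tied to POM121, none was common. MYC was at 118 and 113 FPKM in the DU145DR controls and 104, 97.0, 113 and 103 FPKM in the siPOM121 libraries, and at 86.1 and 87.4 against 78.9, 79.5, 56.4 and 78.8 FPKM in 22Rv1DR. The effect of siPOM121 on MYC was -0.15 ± 0.11 in DU145DR and -0.26 ± 0.11 in 22Rv1DR, and -0.20 ± 0.085 over both lines (adjusted p = 0.106); 4C was the lowest library. E2F1 was at 26.9 and 25.2 FPKM in the DU145DR controls and 26.2, 25.2, 26.5 and 27.0 FPKM in the siPOM121 libraries, and at 20.7 and 22.3 against 11.9, 11.5, 17.8 and 15.9 FPKM in 22Rv1DR. E2F1 had an effect in 22Rv1DR of -0.62 ± 0.057 and in DU145DR of 0.012 (line difference adjusted p = 0.00112), and so it belongs to the genes left out. GATA2 was at 21.2 and 19.9 FPKM in the DU145DR controls and 19.3, 17.8, 19.2 and 18.1 FPKM in the siPOM121 libraries, and at 52.8 and 54.3 against 60.6, 62.1, 42.2 and 58.3 FPKM in 22Rv1DR, with an effect of -0.050 ± 0.090 over both lines (adjusted p = 0.724). These are transcript levels, which do not measure import of the proteins. Of 12 genes of the MYC network 1 was common: MXI1, a repressor that competes with MYC for MAX, rose by 0.19 in DU145DR and 0.23 in 22Rv1DR (log2) and lost the call in 7 of the 29 alternative fits.

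Cell-cycle genes were lower in both lines for a part of each list only, and by more in 22Rv1DR. Of 55 genes of the E2F and DNA replication list 8 were common and lower, beside 4.14% of all tested genes. The median effect was -0.065 in DU145DR and -0.59 in 22Rv1DR. The line difference passed the test for 43 of the 55, beside 24.8% of all tested genes. E2F4, a repressor-type E2F, was at 48.2 and 44.9 FPKM in the DU145DR controls and 35.6, 35.0, 37.8 and 38.5 FPKM in the siPOM121 libraries, and at 35.2 and 36.5 against 26.3, 26.4, 22.5 and 26.6 FPKM in 22Rv1DR. With effects of -0.34 ± 0.064 in DU145DR and -0.50 ± 0.064 in 22Rv1DR, E2F4 showed no difference between the lines that passed the test (adjusted p = 0.24). MCM7, a subunit of the replicative helicase, was at 159 and 144 FPKM in the DU145DR controls and 135, 127, 134 and 133 FPKM in the siPOM121 libraries, and at 184 and 189 against 106, 104, 117 and 120.3 FPKM in 22Rv1DR. MCM7 fell by 0.19 and by 0.74 on the log2 scale (line difference adjusted p = 0.000969). POLE, GINS3 and UHRF1 had effects of -0.23 and -0.58, of -0.23 and -0.59 and of -0.12 and -0.71 in DU145DR and 22Rv1DR, each with a line difference past the threshold. UHRF1 lost the call in 17 and GINS3 in 10 of the 29 alternative fits. The count was 0 without 1A, 1 for construct 2 with the controls, 4 without any one of the other DU145DR libraries or a 22Rv1DR control, 15 without 4C and 13 without 5C.

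Of 41 mitosis genes 9 were common and lower and none common and higher, beside 4.14% and 3.37% of all tested genes. The line difference passed the test for 30 of the 41, beside 24.8%. PLK1, a kinase of mitotic entry and exit, was at 102 and 98.0 FPKM in the DU145DR controls and 86.3, 83.1, 90.3 and 87.4 FPKM in the siPOM121 libraries, and at 57.9 and 57.2 against 35.3, 36.5, 38.7 and 38.8 FPKM in 22Rv1DR. The effect was -0.21 ± 0.037 in DU145DR and -0.63 ± 0.037 in 22Rv1DR (line difference adjusted p = 0.00101). NCAPH (condensin), BUB1B (spindle checkpoint) and AURKA (spindle kinase) had effects of -0.22 and -0.73, of -0.20 and -0.56 and of -0.21 and -0.44, each larger in 22Rv1DR by the test of the line difference, and KIF23 of -0.18 and -0.28. Of the apoptosis list, BIRC5 (survivin), which is also a mitotic protein, changed by -0.18 ± 0.039 in DU145DR and -0.44 ± 0.039 in 22Rv1DR. The mitosis count was 2 without 1A or 2A, 5 without 1B, 1C, 4A or 5A, 15 without 4C, and 0 for construct 2 with the controls.

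Of 18 genes of the MAPK feedback and PEA3 list 3 were common and lower: the ETS factor ETV4, cyclin D1 (CCND1) and the phosphatase DUSP7. Among all tested genes 4.14% were common and lower. The rest of the list did not share a direction. In 22Rv1DR 7 of the 18 were higher and 3 lower by its own test, with a median effect of 0.097. Over all tested genes 15.2% were higher and 20.4% lower there. In DU145DR 1 of the 18 was higher and 10 lower, with a median of -0.18, beside 14.5% higher and 9.37% lower of all tested genes. ETV4 was at 30.0 and 29.1 FPKM in the DU145DR controls and 20.7, 19.7, 22.9 and 21.3 FPKM in the siPOM121 libraries, and at 17.9 and 19.6 against 14.1, 14.5, 11.8 and 14.4 FPKM in 22Rv1DR. Its effect was -0.48 ± 0.076 in DU145DR and -0.45 ± 0.076 in 22Rv1DR (adjusted p = 0.000555). CCND1 changed by -0.41 and -0.19 and DUSP7 by -0.21 and -0.26 in DU145DR and 22Rv1DR, with control levels of CCND1 of 88.3 and 83.3 FPKM in DU145DR and 532 and 512 FPKM in 22Rv1DR. DUSP7 lost the call in 13 and CCND1 in 8 of the 29 alternative fits. The count was 1 without 4A, 5A, 4B or 5B.

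The higher genes with the largest shared effects included CDKN1C, EGR1 and FOS. CDKN1C (p57), an inhibitor of cyclin-dependent kinases, was at 1.84 and 1.64 FPKM in the DU145DR controls and 3.76, 3.26, 2.81 and 3.29 FPKM in the siPOM121 libraries, and at 5.30 and 4.41 against 9.79, 9.09, 12.1 and 10.4 FPKM in 22Rv1DR. All 8 siPOM121 libraries lay above the controls of their line, and the effect was 0.91 ± 0.11 in DU145DR and 1.09 ± 0.11 in 22Rv1DR (adjusted p = 0.000132). It was the largest shared rise by the naming rule and held in all 29 alternative fits. CDKN1A (p21), its relative, rose with it: CDKN1A was at 15.5 and 14.5 FPKM in the DU145DR controls and 20.4, 19.3, 19.8 and 18.9 FPKM in the siPOM121 libraries, and at 71.4 and 75.5 against 119, 121, 104 and 107 FPKM in 22Rv1DR. The effect on CDKN1A was 0.39 ± 0.047 in DU145DR and 0.62 ± 0.047 in 22Rv1DR (line difference adjusted p = 0.0334). Control levels of CDKN1A were higher in 22Rv1DR, and the rise was larger there as well.

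Immediate early genes are switched on within minutes of a stimulus and encode transcription factors and RNA regulators. Of 28 tested 7 were common and higher and none common and lower, beside 3.37% and 4.14% of all tested genes. EGR1 was at 1.94 and 1.97 FPKM in the DU145DR controls and 4.05, 3.43, 3.34 and 3.68 FPKM in the siPOM121 libraries, and at 14.2 and 13.9 against 21.1, 21.6, 38.8 and 26.6 FPKM in 22Rv1DR. The effect was 0.88 ± 0.13 in DU145DR and 0.90 ± 0.13 in 22Rv1DR (adjusted p = 0.0011). FOS was at 2.80 and 2.95 FPKM in the DU145DR controls and 5.47, 5.91, 4.59 and 4.99 FPKM in the siPOM121 libraries, and at 5.98 and 5.77 against 9.30, 9.90, 20.0 and 12.7 FPKM in 22Rv1DR. The effect was 0.86 ± 0.14 in DU145DR and 1.07 ± 0.14 in 22Rv1DR (adjusted p = 0.00223). In 22Rv1DR library 4C was the highest for both genes, and 5C came next.

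JUNB, a partner of FOS, changed by 0.51 ± 0.056 in DU145DR and 0.75 ± 0.056 in 22Rv1DR and ZFP36, which destabilises cytokine messages, by 0.38 ± 0.055 in DU145DR and 0.89 ± 0.055 in 22Rv1DR, the latter with a larger effect in 22Rv1DR (line difference adjusted p = 0.00242). BTG2, an antiproliferative gene, was at 2.87 and 2.71 FPKM in the DU145DR controls and 4.56, 4.44, 5.20 and 4.50 FPKM in the siPOM121 libraries, and at 9.57 and 9.91 against 17.4, 17.7, 16.1 and 18.1 FPKM in 22Rv1DR. The siPOM121 libraries of BTG2 lay close together in each line, and its effect was 0.74 ± 0.069 in DU145DR and 0.83 ± 0.069 in 22Rv1DR (adjusted p = 2.49e-05). JUND and the nuclear receptor NR4A1 changed by 0.51 and 0.69 and by 0.42 and 1.15, with 4C far above the others (74.6 FPKM of JUND and 24.6 of NR4A1), and lost the call in 13 and 14 of the 29 alternative fits. With 1 library left out the list count was 5 to 8. The median effect of the 28 genes was 0.0039 in DU145DR and 0.56 in 22Rv1DR, and 5 of them were lower in DU145DR by its own test (9.37% of all tested genes were).

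TP53INP1, a stress-induced gene of cell death and autophagy, was at 1.24 and 1.37 FPKM in the DU145DR controls and 2.55, 2.58, 1.79 and 2.41 FPKM in the siPOM121 libraries, and at 9.06 and 8.28 against 16.4, 17.2, 12.1 and 13.4 FPKM in 22Rv1DR. Its effect was 0.82 ± 0.11 in DU145DR and 0.76 ± 0.11 in 22Rv1DR (adjusted p = 0.000888), and the call was lost with the floor raised to 2 FPKM, above its DU145DR control levels. ZMAT3, an RNA-binding zinc finger protein, changed by 0.34 and 0.41 and cyclin G1 (CCNG1) by 0.28 and 0.44 in DU145DR and 22Rv1DR.

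FOXO targets and arrestin-domain genes, which growth factor signalling through AKT holds down, had the largest share of common higher genes of the 31 lists plotted here: 8 of 19, with none common and lower. Among all tested genes 3.37% were common and higher. The median effect of the 19 was 0.30 in DU145DR and 0.22 in 22Rv1DR. BCL6, a transcriptional repressor, was at 4.97 and 4.77 FPKM in the DU145DR controls and 6.88, 7.01, 7.18 and 7.31 FPKM in the siPOM121 libraries, and at 5.01 and 5.47 against 7.32, 7.93, 9.47 and 8.09 FPKM in 22Rv1DR. The effect was 0.54 ± 0.071 in DU145DR and 0.64 ± 0.071 in 22Rv1DR (adjusted p = 0.000224). CITED2, a co-regulator of CBP and p300, was at 12.9 and 12.7 FPKM in the DU145DR controls and 16.6, 15.6, 17.9 and 17.0 FPKM in the siPOM121 libraries, and at 146 and 143 against 210.2, 211, 211 and 188 FPKM in 22Rv1DR. The control levels differed widely between the lines, while the effects were 0.39 ± 0.052 in DU145DR and 0.50 ± 0.052 in 22Rv1DR (adjusted p = 0.000244). The cyclin CCNG2, which opposes proliferation, changed by 0.41 and 0.26, and the sestrins SESN1 and SESN3, which restrain mTORC1, by 0.41 and 0.62 and by 0.80 and 0.50. The count was 4 without 5A and 5 without 1A, 4A or 5B, and SESN1 and SESN3 lost the call in 5 and 4 of the 29 alternative fits.

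Of other genes of growth factor signalling, SGK3, a kinase related to AKT, changed by 0.71 ± 0.12 in DU145DR and 0.69 ± 0.12 in 22Rv1DR. Of 31 genes of mTOR complexes and their regulators 3 were common and higher: RRAGD, a GTPase that brings mTORC1 to the lysosome (0.33 and 0.45), DEPTOR, an mTOR inhibitor (1.00 and 0.35), and RHEBL1, related to the activator RHEB (0.49 and 0.37). DEPTOR was at 8.87 and 7.94 FPKM in the DU145DR controls and 18.6, 18.1, 14.7 and 15.9 FPKM in the siPOM121 libraries, and at 5.16 and 4.48 against 5.81, 6.47, 6.49 and 5.84 FPKM in 22Rv1DR. DEPTOR rose by more in DU145DR (line difference adjusted p = 0.00495). It lost the call in 2 of the 29 alternative fits, and RRAGD and RHEBL1 in 3 each. None of the 31 was common and lower, and 3.37% of all tested genes were common and higher. In 22Rv1DR 8 of the 31 were higher and 8 lower by its own test, beside 15.2% and 20.4% of all tested genes. The line difference passed for 13 of the 31, beside 24.8%.

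Other genes with the largest shared rise have no role in common that a list here covers. SLC40A1 (ferroportin), the iron exporter, was at 1.08 and 1.05 FPKM in the DU145DR controls and 1.84, 2.04, 1.88 and 1.87 FPKM in the siPOM121 libraries, and at 9.75 and 10.0 against 15.9, 15.9, 18.7 and 16.4 FPKM in 22Rv1DR. Its effect was 0.84 ± 0.066 in DU145DR and 0.75 ± 0.066 in 22Rv1DR (adjusted p = 2.49e-05), with DU145DR controls next to the floor of 1 FPKM; the call was lost with the floor raised to 2 FPKM. SEMA6B, a membrane semaphorin, was at 13.0 and 13.0 FPKM in the DU145DR controls and 22.3, 18.7, 20.4 and 19.6 FPKM in the siPOM121 libraries, and at 1.74 and 1.80 against 3.20, 3.27, 3.26 and 2.96 FPKM in 22Rv1DR. The effect was 0.64 ± 0.072 in DU145DR and 0.84 ± 0.072 in 22Rv1DR (adjusted p = 6.55e-05). TMEM59L changed by 0.77 ± 0.092 in DU145DR and 0.76 ± 0.092 in 22Rv1DR, PCSK1N, an inhibitor of a prohormone convertase, by 0.74 ± 0.10 in DU145DR and 0.56 ± 0.10 in 22Rv1DR, and SERPINI1 (neuroserpin), a protease inhibitor, by 0.55 ± 0.088 in DU145DR and 0.56 ± 0.088 in 22Rv1DR. HIST1H3H, a histone gene whose near-identical copies make its value uncertain, changed by 0.62 and 0.67 in DU145DR and 22Rv1DR.

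Lysosome and autophagy genes were common and higher for 10 of 50 tested, beside 3.37% of all tested genes, and none was common and lower. Over both lines 15 were higher and 2 lower, beside 9.64% and 10.8% of all tested genes. LAMP2, a protein of the lysosomal membrane, was at 43.0 and 44.3 FPKM in the DU145DR controls and 51.0, 51.7, 51.5 and 52.6 FPKM in the siPOM121 libraries, and at 12.5 and 12.3 against 15.1, 15.6, 16.8 and 16.4 FPKM in 22Rv1DR. The effect was 0.24 ± 0.036 in DU145DR and 0.37 ± 0.036 in 22Rv1DR (adjusted p = 0.000564). SCARB2, a lysosomal receptor, was at 50.9 and 53.2 FPKM in the DU145DR controls and 62.3, 60.9, 61.5 and 61.4 FPKM in the siPOM121 libraries, and at 54.5 and 53.5 against 66.9, 69.3, 62.1 and 64.9 FPKM in 22Rv1DR. Its effect was 0.24 ± 0.038 in DU145DR and 0.28 ± 0.038 in 22Rv1DR. PSAP (prosaposin) and BNIP3L, a receptor of mitophagy, changed by 0.26 and 0.18 and by 0.21 and 0.62 in DU145DR and 22Rv1DR. The count was 4 without 4A, 5 without 1A or 5A and 16 without 4C, and construct 2 with the controls gave 2. Of 55 RAB GTPases, which direct vesicle traffic (a family chosen after the values were seen), 7 were common and higher and none lower, and the count was 3 without 5A and 4 without 4A.

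In lipid metabolism, 4 of 30 cholesterol genes and 4 of 34 fatty acid genes were common and higher, and none common and lower. Of all tested genes 3.37% were common and higher. By the test in 22Rv1DR, 12 cholesterol genes were higher and 6 lower, and 12 fatty acid genes were higher and 5 lower. In DU145DR the counts were 11 and 0, and 11 and 2. All tested genes gave 15.2% and 20.4% in 22Rv1DR and 14.5% and 9.37% in DU145DR. INSIG2, which retains the sterol sensor in the endoplasmic reticulum, was at 4.61 and 4.74 FPKM in the DU145DR controls and 6.20, 5.47, 6.70 and 6.25 FPKM in the siPOM121 libraries, and at 3.46 and 3.44 against 4.57, 4.70, 4.62 and 4.48 FPKM in 22Rv1DR. Its effect was 0.39 ± 0.061 in DU145DR and 0.41 ± 0.061 in 22Rv1DR (adjusted p = 0.000555). NPC2, which moves cholesterol out of lysosomes, changed by 0.35 and 0.24, and the reductase TM7SF2 by 0.86 and 0.30, with 4C (44.2 FPKM) under both 22Rv1DR controls. CAT (catalase), a peroxisomal enzyme, was at 14.7 and 14.5 FPKM in the DU145DR controls and 20.3, 19.4, 18.8 and 19.9 FPKM in the siPOM121 libraries, and at 57.4 and 58.2 against 80.9, 82.1, 72.3 and 79.3 FPKM in 22Rv1DR. The effect on CAT was 0.42 ± 0.047 in DU145DR and 0.44 ± 0.047 in 22Rv1DR (adjusted p = 0.000132). PPARA, a receptor that drives fatty acid oxidation, changed by 0.83 and 0.37 (line difference adjusted p = 0.0181), ACSL3 by 0.21 and 0.28 and DECR1 by 0.20 and 0.20. The cholesterol count was 2 without 4A, 5A, 4B or 5B and 8 without 4C, and the fatty acid count 2 without 4A and 7 without 4C.

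Antigen presentation genes were examined after the values were seen: 4 of 6 HLA class I genes and B2M that were tested were common and higher. HLA-C was at 46.3 and 42.9 FPKM in the DU145DR controls and 60.2, 59.6, 60.9 and 59.4 FPKM in the siPOM121 libraries, and at 1.50 and 1.69 against 2.00, 2.32, 2.47 and 2.39 FPKM in 22Rv1DR. The level was far lower in 22Rv1DR, and the effects were 0.43 ± 0.072 in DU145DR and 0.52 ± 0.072 in 22Rv1DR (adjusted p = 0.000478). B2M (beta-2 microglobulin) was at 593 and 613 FPKM in the DU145DR controls and 717, 698, 719 and 727 FPKM in the siPOM121 libraries, and at 254 and 239 against 281, 302, 379 and 339 FPKM in 22Rv1DR, an effect of 0.25 ± 0.054 in DU145DR and 0.39 ± 0.054 in 22Rv1DR. HLA-B changed by 0.35 and 0.34 in DU145DR and 22Rv1DR. HLA genes are similar in sequence and vary between genomes, so their separate values are uncertain. The count was 2 without 1A or 2A. Of 35 interferon response genes 2 were common and higher, beside 3.37% of all tested genes. Among the 2 was IFI6, at 0.61 ± 0.091 in DU145DR and 0.54 ± 0.091 in 22Rv1DR.

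The lists named for lineage and drug response had common genes in the higher direction only, beside 3.37% of all tested genes. Of 42 mesenchymal and TGF-beta genes 5 were common and higher, such as the integrin ITGA5 (0.27 and 0.70 in DU145DR and 22Rv1DR) and the myosin light chain MYL9 (0.28 and 0.56), and of 32 epithelial genes 3: CGN (0.54 and 0.26), CD24 (0.94 and 0.21) and CLDN1 (0.16 and 0.56). No mesenchymal gene was left without 2A and 2 or 3 without 1A, 4A, 5A, 4B or 5B, and the epithelial count was 1 without 1A, 2A, 1B, 2B, 4A, 5A, 4B or 5B and 6 without 4C. Of 29 genes of drug transport, tubulin and docetaxel response 3 were common and higher, namely CLU, a chaperone linked to docetaxel survival (0.48 ± 0.077 in DU145DR and 0.40 ± 0.077 in 22Rv1DR), the microtubule protein MAP2 (0.70 and 0.17) and the tubulin TUBB4A (0.52 and 0.35). Other members of that list went down: 4 of the 29 were lower over both lines and 9 were lower in 22Rv1DR by its own test, where 7 were higher. Of all tested genes 10.8% were lower over both lines, and 20.4% were lower and 15.2% higher in 22Rv1DR. MAP2 lost the call in 10 of the 29 alternative fits and TUBB4A in 9. The drug response count was 1 without 4A, 5A, 4B or 5B and 5 without 4C, and construct 2 with the controls left no gene of this list or of the epithelial list, in which CD24 and CLDN1 lost the call in 10 and 9 fits. The hypoxia list had 2 common genes of 38, NDRG1 (0.40 ± 0.046 in DU145DR and 0.78 ± 0.046 in 22Rv1DR) and EGLN3 (0.56 and 0.50). Its count was 6 without 4C, 4 without 5C and 1 without 1A, 2A, 1B, 1C, 4B or 5B, and EGLN3 lost the call in 12 of the 29 alternative fits.

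In the ATF4 and amino acid response list 2 of 29 genes were common and higher and 3 lower. The lower genes are amino acid transporters: SLC1A5 (-0.25 and -0.35 in DU145DR and 22Rv1DR), SLC7A5 (-0.36 and -0.15) and SLC7A1 (-0.22 and -0.58). SLC1A5 was at 105 and 103 FPKM in the DU145DR controls and 86.8, 83.9, 90.9 and 89.2 FPKM in the siPOM121 libraries, and at 55.1 and 62.7 against 44.8, 44.5, 47.0 and 48.8 FPKM in 22Rv1DR. The higher genes were VLDLR, a lipoprotein receptor, at 0.34 and 0.69, and CTH, which makes cysteine, at 0.44 and 0.29. Of 31 YAP and TEAD targets LATS2 (0.25 and 0.74) and WWTR1 (0.26 and 0.17) were common and higher and TEAD4 (-0.19 and -0.30) lower. Of 34 apoptosis regulators BCL2L11 (BIM), which promotes cell death, changed by 0.45 ± 0.074 in DU145DR and 0.39 ± 0.074 in 22Rv1DR and the death receptor FAS by 0.22 and 0.35, beside BIRC5 given above. SOD2 (0.35 and 0.14) was the only common gene of 24 in the NF-kB list. No gene was common among 27 endoplasmic reticulum chaperones, 29 genes of the Notch and Hedgehog pathways, or the 4 tested markers of stromal, endothelial and blood cells. These counts are small, beside 3.37% common and higher and 4.14% common and lower of all tested genes, and they depended on single libraries. No YAP and TEAD target was common without 1A, TEAD4 was also lost without 2A, 1B, 2B or 2C, SOD2 was lost without 4A, 5A, 4B or 5B, and BIRC5 without 1A, 2A, 4A or 5A. WWTR1 lost the call in 13 of the 29 alternative fits. In the ATF4 list 1 higher gene was left without 1A, 2A, 4A or 5A, and 2 to 5 lower genes with 1 library left out.

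**Figure D5:**
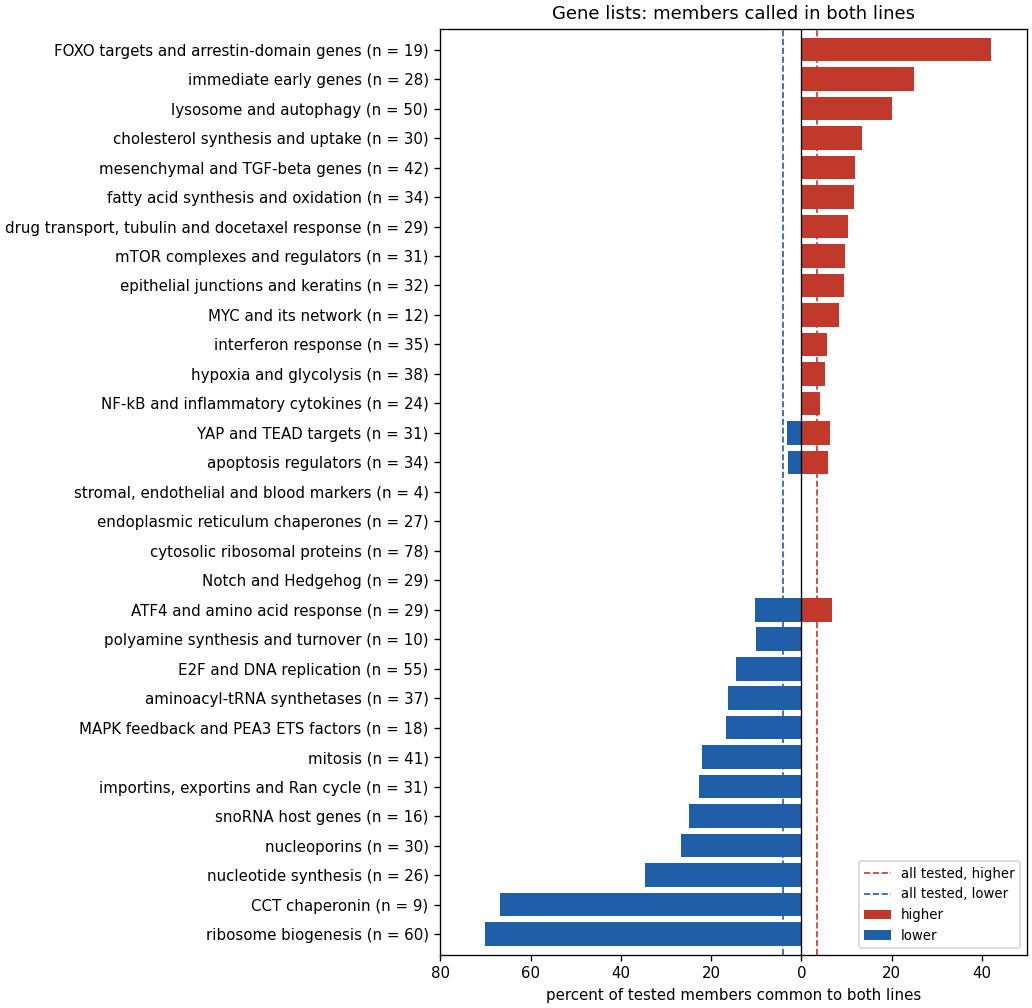
Percent of the tested members of each of 31 lists (n in parentheses) that were common and higher (red, to the right) or common and lower (blue, to the left). Dashed lines mark the shares of all tested genes, 3.37% higher and 4.14% lower; ribosome biogenesis (42 of 60) and CCT chaperonin (6 of 9) reach farthest to the left, and FOXO targets and arrestin-domain genes (8 of 19) to the right.

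Common direction did not mean equal size. The line difference passed the test for 174 of the 1023 common genes (17.0%), beside 24.8% of all tested genes, a share that the choice of common genes lowers. Of the 88 higher genes among them 51 rose by more in DU145DR and 37 by more in 22Rv1DR. Of the 86 lower genes 73 fell by more in 22Rv1DR, the cell-cycle genes above included, and 13 by more in DU145DR, with ODC1, SNHG17, SNHG15 and SNHG1 among them. These counts depended on the libraries used: 54 (without 2A) to 591 (without 5C) common genes differed between the lines when 1 library was left out.

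The common genes were a minority of each line's response. In DU145DR 3253 symbols passed the test (23.9%) and in 22Rv1DR 4842 (35.5%), and 1288 passed in both. Of these 1039 moved in the same direction, which is 31.9% of the DU145DR calls and 21.5% of the 22Rv1DR calls, and 249 moved in opposite directions, 92 of them lower in DU145DR and higher in 22Rv1DR and 157 the reverse. Across the 13622 genes the line effects had a Pearson r of 0.23 and a Spearman rho of 0.28, which is a description over genes that share libraries and are not independent. The symbols set aside with 4 differences of one sign were called in 22Rv1DR only in 920 cases higher and 1027 lower, and in DU145DR only in 324 and 221.

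Of the common higher genes 3 are all-or-none, with lanes at the floor beside lanes far above it, and have no usable fold change. NIT1 stood at the floor on lane 1 of both DU145DR controls and at 23.7 and 21.4 FPKM on lane 2, and all other lanes read 22.9 to 36.1 FPKM. NSUN5P2, a pseudogene, was at the floor on all 8 control lanes and on 1 lane each of 2B and 2C, with 5.15 to 10.2 FPKM elsewhere. SCARNA22, a small RNA, was at the floor on 6 of 8 control lanes and on 1 lane each of 2B, 1C and 2C. The gap in NIT1 lies between lanes of the same libraries.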

How the data were processed

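RNA-seq libraries were made from poly(A) RNA with TruSeq version 2 reagents, per the labels' protocols, which mark no strand. Reads were processed with TopHat and Cufflinks, with hg19 and mm10 named as builds, per the submitters' processing notes; versions are not given in the sources used here. The deposited table holds log2 FPKM per gene symbol and sample: 100% of its values above 0 become numbers of 6 significant digits as powers of 2 (within 0.02 units of the sixth digit). Values at or under 1 FPKM were deposited as 0, which is 52.8% of all values. Of 27026 lines, 25277 symbols were distinct; 605 were listed more than once and enter by their line of highest mean. The read depth is unknown, so no counting interval is given.

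Both lanes of a library were averaged on the log2 scale with no further pseudocount; the design had allowed for plain FPKM with a pseudocount, which these deposited values do not need. Tests cover the 13622 symbols that exceeded the floor on both lanes of 2 or more of the 12 libraries. Tests used limma 3.58.1 in R 4.3.3 (trend and robust options, 2-sided, Benjamini-Hochberg over all symbols tested, threshold 0.05). A first model compared siPOM121 (8 libraries) with control (4) with line as a block (9 residual degrees of freedom), and a fit of 6 group means (6 residual degrees of freedom) gave the effect in each line, as the mean of both constructs minus control, and the line difference as an interaction. SE stands for the moderated standard error, and n is 2 libraries per group. A FPKM value of a library is the power of 2 of its lane mean.

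The members and the 33 gene lists were chosen with earlier results of these data known, and 10 families were picked by symbol after the values were seen. Of the lists 31 are shown, and some genes and lists are not reported here. Genes are named by this rule: POM121 and POM121C; the 12 higher and 12 lower common genes with the largest smaller line effect, a mean of at least 5 FPKM and no all-or-none values (a sample at the floor and another at log2 FPKM of 3 or more in a line); from each list up to 5 common members, taken by smallest p; and up to 3 all-or-none examples. E2F1, MYC and GATA2, further members of a list that contrast with the common ones, genes beside the threshold and the examples of families, with JUND and NR4A1, were named after their values were seen. Alternatives were 28 fits with another floor, added constant, filter, normalization, block, set of lanes or libraries, or estimate of the spread, and 1 fit added after seeing the data, without both 22Rv1DR construct 2 libraries. Promoter windows were matched by symbol to RefSeq (GRCh38.p14) for 10638 of 13622 tested symbols.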

Additional observations from a re-analysis of the deposited data

Results flagged for a closer look

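The effect of siPOM121 differed between the lines, by the interaction test at an adjusted p of 0.05, for 39 of the genes named in the report. Values are the 22Rv1DR effect minus the DU145DR effect on the log2 scale. The target showed the largest difference, POM121 (-1.66) with its paralog POM121C (-1.86), both of which fell by more in 22Rv1DR. Lower genes that fell by more in 22Rv1DR were UHRF1 (-0.588), MCM7 (-0.55), NCAPH (-0.504), PLK1 (-0.418), BUB1B (-0.362), GINS3 (-0.359), CAD (-0.358), SLC7A1 (-0.354), POLE (-0.35), EXOSC10 (-0.29), BIRC5 (-0.258), AURKA (-0.232), KPNB1 (-0.23) and SRSF1 (-0.229). Most of these act in DNA replication or mitosis. Lower genes that fell by more in DU145DR were CTPS1 (0.192), SLC7A5 (0.211), SNHG15 (0.286), SNHG1 (0.327), SNHG17 (0.357) and ODC1 (0.424). Higher genes that rose by more in 22Rv1DR were CDKN1A (0.229), MYL9 (0.273), VLDLR (0.351), NDRG1 (0.375), CLDN1 (0.4), BNIP3L (0.413), ITGA5 (0.437), LATS2 (0.486), ZFP36 (0.514) and NR4A1 (0.723). Higher genes that rose by more in DU145DR were CD24 (-0.738), DEPTOR (-0.642), TM7SF2 (-0.561), MAP2 (-0.524), PPARA (-0.457) and SOD2 (-0.217). E2F1 (-0.629), which is not a common gene, differed as well. Groups of 2 libraries are too small for a test of outlying samples, so none was run.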

How the results depend on the processing

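The calls depended on the libraries. With 1 library left out, the fit over both lines gave 888 to 1980 higher and 833 to 1859 lower genes (1313 and 1476 with all), and 240 to 871 higher and 187 to 1038 lower genes were common (459 and 564 with all). The number of common genes with a line difference was 54 to 591 (174 with all), and that of common lower ribosome biogenesis factors 24 to 51 (42 with all). Construct 1 with the controls gave 747 higher and 974 lower common genes, of which 416 differed between lines. Construct 2 with the controls gave 449 higher and 505 lower genes over both lines, 168 and 128 common genes, 15 line differences and 18 ribosome biogenesis factors. The lower-numbered lanes alone gave 300 common higher genes and 88 line differences, and the higher-numbered lanes 288 higher, 366 lower and 75 line differences. Array weights gave 863 common lower genes and 309 line differences. Taking the mean of the 4 differences from the 6-group fit gave 2749 higher and 2723 lower genes over both lines. Without both 22Rv1DR construct 2 libraries (chosen after seeing the data) 838 higher and 1048 lower genes were common and 531 differed between lines. The cause was not tested.

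The effect on GATA2, not called in any fit, ranged from -0.081 to 0.0066 with 1 library left out (the sign changed without 4C) and was 0.025 with construct 1 alone and 0.0026 without both 22Rv1DR construct 2 libraries. Over all named genes and alternatives, 3672 values kept direction and call, 526 lost the call and 2, both of MYC, gained it (-0.14 without 4C, -0.17 with construct 1). Deviations of same-numbered libraries correlated at -0.15 to 0.18 in DU145DR and -0.21 to 0.11 in 22Rv1DR. With 2 libraries per group these values cannot settle whether the replicate numbers pair the libraries. With the library number as the replicate block 930 higher and 1132 lower genes were called, 425 and 543 of them common. Depth is unknown, and genes near the floor of 1 FPKM have understated fold changes.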

Other observations

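Under the level of 5 FPKM that the naming rule asks for, a few common genes had larger effects than those of the report; they were chosen after their values were seen. NGFR, a receptor for neurotrophins, rose by 1.18 in DU145DR and 0.94 in 22Rv1DR (log2) at a mean of 2.73 FPKM, and ENPP5 by 0.83 and 0.84 at 3.74 FPKM. SBF2-AS1, an antisense transcript whose reads cannot be told from those of the other strand in these libraries, fell by 1.20 on the log2 scale in both lines at 1.72 FPKM. FNTB, the beta subunit of farnesyltransferase, fell by 0.65 and 1.17 at 2.68 FPKM.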
